A study of Capra hircus with 20 samples.

Results

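The let-7 and miR-98 guide strands were followed in the hypothalamus of Jining grey goats from birth to day 180. The members were the 5p strands of let-7a, b, c, d, e, f, g and i and of miR-98, chosen by name from the deposited miRNA table, in which each name carries the goat prefix chi. All 9 were found among the 683 miRNAs of the table, and all 9 passed the filter on low values that 414 miRNAs passed. Hypothalamus was taken at 4 ages, day 1, day 60, day 120 and day 180 after birth, with 5 animals at each age and 20 small RNA libraries in all. All animals were kept in the same surroundings with food and water at will, and the labels give no treatment, genotype, sex or batch.

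let-7 is an ancient miRNA family whose 5p strand is the guide that the Argonaute protein holds. The members share the seed with which a miRNA pairs to its targets, and they differ from each other at few positions outside it. LIN28A and LIN28B bind let-7 precursors and block their maturation, and let-7 in turn represses LIN28, HMGA2 and RAS messages, so that let-7 accumulates as cells leave the dividing state. In humans, variants near LIN28B are associated with the age at puberty, and in rats let-7 rises in the hypothalamus as Lin28 declines after birth. The target messages were not measured here.

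The values are RPM, the reads of a miRNA over all miRNA reads of its library, scaled to a common total. Depth recovered from the RPM ran from 4017937 to 8324880 miRNA reads per library. Even let-7d-5p had between 2450 and 16098 reads in each library, so that counting error was small beside the spread between animals. Library totals were not corrected for cell make-up: in whole tissue, fewer cells of a type and less RNA per cell cannot be told apart. Replicate 2 of day 1 stood apart from the rest. Over all miRNAs it correlated with its fellow libraries at a median Spearman coefficient of 0.873, the smallest, where the second smallest was 0.918, and it was the shallowest library. It also held the lowest let-7f-5p, let-7g-5p and let-7i-5p of all 20 libraries, so that values without it are given beside the comparisons with day 1. Reads of nearly identical members can be assigned to one another, and the split between members depends on counting rules not stated in the labels.

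Together the 9 strands made up 22.3% ± 6.97 of all miRNA reads (SD, n = 20). Their summed share was 20.9, 7.51, 10.2, 18.5 and 21.1% in replicates 1 to 5 of day 1 and 21.5, 28.8, 34.7, 28.5 and 18.2% in those of day 60. It was 15.7, 23.7, 26.2, 28.2 and 23.2% in the libraries of day 120 and 26.5, 23.8, 33.8, 16.8 and 18.9% in those of day 180. The summed share averaged 15.6% ± 6.35 in newborns, 26.3% ± 6.53 at day 60, 23.4% ± 4.72 at day 120 and 23.9% ± 6.71 at the last age (SD, n = 5 each). In each of the 3 later ages all 5 libraries lay above the mean of the 5 day 1 libraries, but the ages overlapped, since the highest day 1 library exceeded the lowest of every later age. Without replicate 2, the day 1 sum averaged 176638 ± 51310 RPM (SD, n = 4), against 156331 ± 63533 RPM with it. The lowest libraries of day 120 and day 180, at 157246 and 168059 RPM, lay below 176638 RPM. The lowest library of day 60, at 181520 RPM, lay above it. Since the pool is a sum over chosen members, it is given with no test.

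**Figure D1:**
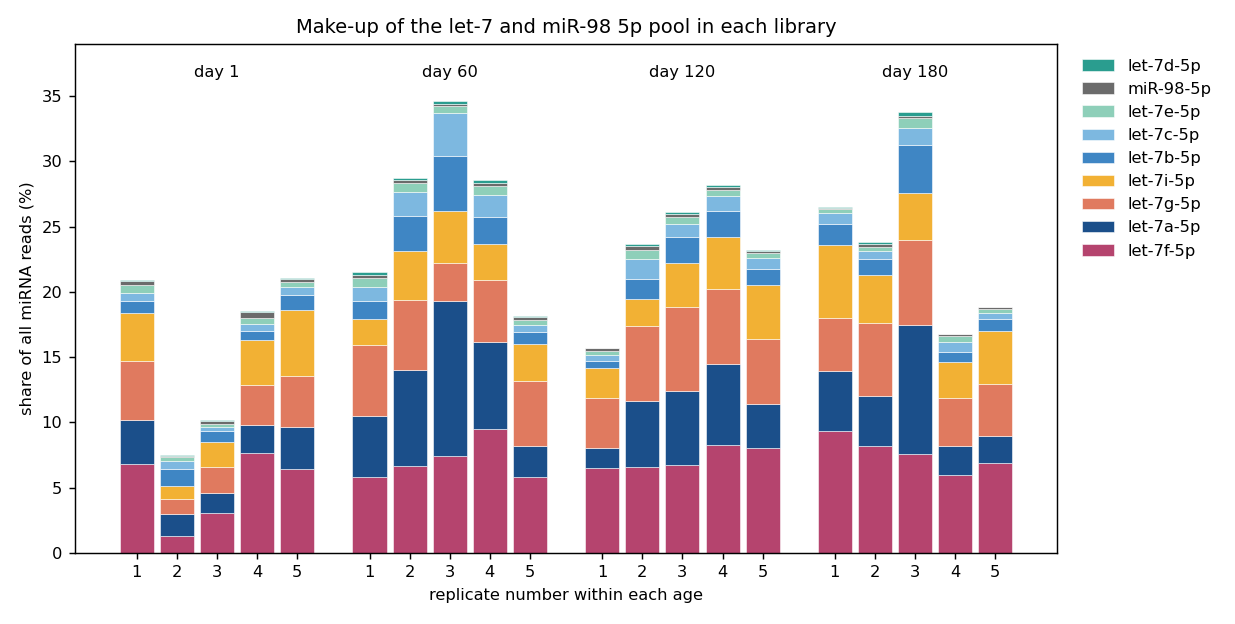
Stacked bars give the share of all miRNA reads (%) held by each 5p strand, with the 5 replicates of each age side by side. Replicates 2 and 3 of day 1 have the shortest bars, 7.51 and 10.2%, and replicate 3 of day 60 the tallest, 34.7%; the dark blue let-7a-5p band changes most in height between libraries.

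The members covered a wide range of levels in an order that changed little with age. let-7f-5p was the most abundant, at 67219 ± 18954 RPM (SD, n = 20), the 3rd miRNA of the table. It was followed by let-7a-5p at 44629 ± 28255 RPM, let-7g-5p at 44404 ± 14089 RPM and let-7i-5p at 33000 ± 11096 RPM. let-7b-5p at 15792 ± 9886 RPM and let-7c-5p at 10116 ± 6851 RPM came next. let-7e-5p at 4687 ± 1587 RPM, miR-98-5p at 2170 ± 801 RPM and let-7d-5p at 1204 ± 680 RPM were the least abundant. The steps at the lower end held in nearly every animal: let-7b-5p exceeded let-7c-5p in 19 of 20 libraries, let-7c-5p exceeded let-7e-5p in 20, let-7e-5p exceeded miR-98-5p in 19 and miR-98-5p exceeded let-7d-5p in 18. The upper end did not order cleanly. let-7f-5p exceeded let-7a-5p in 16 of 20 libraries, let-7g-5p exceeded let-7i-5p in 15, and let-7a-5p exceeded let-7g-5p in 7, although its mean was the higher. By mean, let-7f-5p stood first and let-7b-5p to let-7d-5p stood in the same places at all 4 ages, while let-7a-5p was 4th among members on day 1 and 2nd on day 60, and let-7i-5p was 2nd on day 1 and 4th on day 60. These levels are in RPM and were not corrected for length or for unequal capture of different sequences.

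The first comparison asks what changes between the newborn and the 60-day-old hypothalamus. Of the 9 strands 1 was called higher on day 60 and none lower, by limma with an adjusted p under 0.05, where 0.725% of all 414 miRNAs were called higher, 3.14% lower and 3.86% in either direction. The member called was let-7c-5p, with let-7d-5p and let-7a-5p next by p. Of the strands 8 of 9 had positive changes, and their median was 0.79 (log2 fold change). Over all miRNAs 46.6% were positive and the median was -0.04. Without replicate 2 of day 1, limma called 0 of 9, and 7 of 9 changes were positive with a median of 0.53, where 55.0% of all miRNAs were positive and their median was 0.11. At an unadjusted p under 0.05 by limma there were 5 members, let-7a, b, c, d and g, beside 87 of all 414 miRNAs. edgeR's quasi-likelihood test on the recovered reads called 3 members (let-7a, c and d) and DESeq2 called 4 (let-7a, b, c and d), all higher. The shares of all miRNAs called by edgeR and by DESeq2 are not given, so these counts have no background beside them.

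chi-let-7c-5p, made from the same primary transcript as miR-99a and miR-125b in mammals, had 6131, 5622, 3406, 5920 and 5885 RPM in the day 1 animals and 11035, 17868, 32947, 17426 and 5782 RPM in the day 60 animals. On day 120 it had 4574, 14974, 10115, 11263 and 8044 RPM, and on day 180 8445, 6209, 13538, 8282 and 4860 RPM. Replicate 5 of day 60 was the one animal of that age within the day 1 range, and the other 4 lay above every day 1 animal. let-7c-5p rose to 17012 ± 10206 RPM on day 60, against 5393 ± 1125 RPM on day 1 (SD, n = 5 each). limma gave a log2 fold change of 1.46 (SE 0.42, adjusted p = 0.0494), with a 95% interval from 0.59 to 2.33. The call sat at the threshold. It held when replicate 4 or replicate 5 of the newborns, the fifth of day 60, the first of day 120 or the third of day 180 was left out, and ended when any of the other 15 libraries was, with adjusted p from 0.0109 to 0.132 over the 20 fits by limma. Fold changes in those fits all stayed positive; without replicate 2 of day 1 it was 1.49 (limma, adjusted p = 0.0777), and without replicate 3 of day 60, the highest library, 1.17 (limma, adjusted p = 0.119).

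chi-let-7d-5p, the rarest member, had 933, 610, 347, 675 and 654 RPM in the day 1 animals and 1840, 1973, 2211, 1863 and 939 RPM in the day 60 animals. On day 120 it had 568, 1934, 1631, 1502 and 756 RPM, and on day 180 857, 1109, 2639, 586 and 463 RPM. It was the only member whose day 60 and day 1 groups did not overlap, by the narrow margin between 939 RPM in the lowest day 60 animal and 933 RPM in the highest day 1 animal. Of all miRNAs tested, 0.725% were higher and 2.42% lower on day 60 without overlap. let-7d-5p averaged 1765 ± 485 RPM on day 60 and 644 ± 209 RPM on day 1 (SD, n = 5 each), with a log2 fold change of 1.47 (limma, SE 0.46, adjusted p = 0.07). It passed with median-of-ratios scaling, quantile scaling, both edgeR fits and DESeq2. With 1 library left out it passed in 2 of 20 fits, those without replicate 5 of day 60 (limma, adjusted p = 0.0348) or replicate 3 of day 180. It did not pass without replicate 2 of day 1 (1.46; limma, adjusted p = 0.101), replicate 3 of day 1 (limma, adjusted p = 0.153) or replicate 3 of day 60 (limma, adjusted p = 0.119).

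chi-let-7a-5p, the member most alike in sequence across animals, had 33553, 16925, 15154, 21000 and 31543 RPM in the day 1 animals and 47036, 73848, 118344, 66964 and 23750 RPM in the day 60 animals. On day 120 it had 15390, 50338, 56860, 61778 and 33551 RPM, and on day 180 46169, 38414, 98525, 22700 and 20736 RPM. Replicate 3 was far above the others on day 60 and again on day 180, while replicate 5 of day 60, replicates 1 and 5 of day 120 and replicates 4 and 5 of day 180 lay within the day 1 range. It averaged 65988 ± 35168 RPM on day 60 and 23635 ± 8438 RPM on day 1 (SD, n = 5 each), a log2 fold change of 1.37 (limma, SE 0.47, adjusted p = 0.082). It passed in 1 of the 20 fits with 1 library left out, at 1.69 without replicate 5 of day 60 (limma, adjusted p = 0.0294). It was 1.11 without replicate 3 of day 60 (limma, adjusted p = 0.179), 1.23 without replicate 3 of day 1 (limma, adjusted p = 0.18) and 1.27 without replicate 2 of day 1 (limma, adjusted p = 0.145).

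chi-let-7b-5p, encoded next to let-7a in the goat genome, followed the same animals. It had 9821, 13088, 7773, 6521 and 11111 RPM on day 1, 13386, 27009, 42712, 20422 and 8910 RPM on day 60, 5981, 15661, 20036, 20017 and 12777 RPM on day 120, and 15952, 12152, 36687, 7067 and 8758 RPM on day 180. Replicate 3 was again highest on day 60 and on day 180, and 4 of 5 day 60 animals lay above every day 1 animal. The log2 fold change of day 60 over day 1 was 1.06 (limma, SE 0.46, adjusted p = 0.189), and 1.18 without replicate 2 of day 1 (limma, adjusted p = 0.148). Without replicate 3 of day 60 it was 0.77 (limma, adjusted p = 0.412).

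chi-let-7e-5p, from the primary transcript of miR-99b and miR-125a, moved least among let-7a to let-7e. It had 5486, 3230, 2356, 4398 and 4279 RPM on day 1, 6615, 6977, 5409, 6795 and 3528 RPM on day 60, 2748, 6873, 5396, 5147 and 3699 RPM on day 120, and 2973, 3484, 7237, 4007 and 3095 RPM on day 180. The ages overlapped throughout, and 3 of 5 day 60 animals lay above every day 1 animal. Its log2 fold change of day 60 over day 1 was 0.59 (limma, SE 0.37, adjusted p = 0.382), and 0.53 without replicate 2 of day 1 (limma, adjusted p = 0.426).

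**Figure D2:**
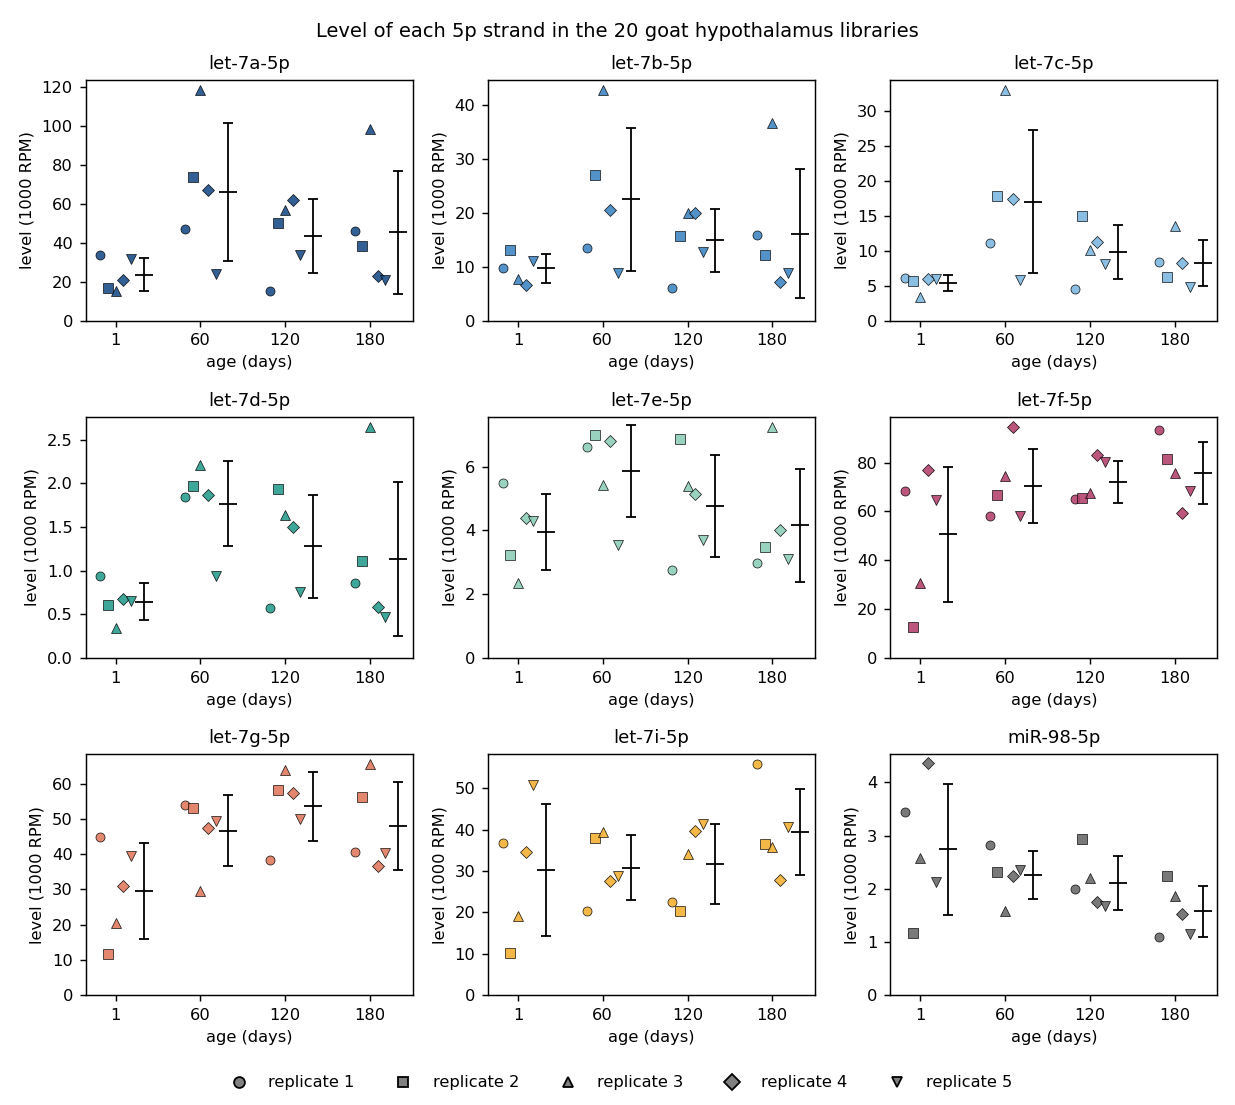
Each panel gives 1 strand by age in days, with its level in units of 1000 RPM on a linear axis from 0; symbols are the 5 animals of an age by replicate number, and the bar beside them is the mean ± SD (n = 5). let-7d-5p is the one panel in which no day 60 animal overlaps day 1, at 939 against 933 RPM, while in the let-7f-5p panel 2 day 1 animals, at 12760 and 30478 RPM, lie below the rest.

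chi-let-7f-5p, the most abundant member, was steady over the later ages. It had 68257, 12760, 30478, 76850 and 64564 RPM on day 1, 58014, 66640, 74467, 94598 and 58066 RPM on day 60, 64997, 65661, 67344, 82969 and 80153 RPM on day 120, and 93266, 81472, 75773, 59523 and 68535 RPM on day 180. Replicates 2 and 3 of day 1 were low, and the other 3 newborns lay among the older animals. Its coefficient of variation was 54.4% on day 1 and 21.6, 11.9 and 16.9% on days 60, 120 and 180. The log2 fold change of day 60 over day 1 was 0.72 (limma, SE 0.39, adjusted p = 0.289), and 0.29 without replicate 2 of day 1 (limma, adjusted p = 0.59). Over day 1 it was 0.77 for day 120 and 0.83 for day 180, and without that newborn 0.34 and 0.40.

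chi-let-7g-5p, which lies in the gene WDR82, had 44924, 11594, 20401, 30848 and 39585 RPM on day 1 and 53960, 53080, 29570, 47434 and 49517 RPM on day 60. On day 120 it had 38417, 58114, 63912, 57381 and 50006 RPM, and on day 180 40522, 56274, 65660, 36648 and 40233 RPM. Replicate 3 of day 60, the animal with the most let-7a-5p, had the least let-7g-5p of its age. The log2 fold change was 0.79 for day 60 (limma, SE 0.35, adjusted p = 0.197), 1.00 for day 120 (limma, SE 0.35, adjusted p = 0.113) and 0.82 for day 180 (limma, SE 0.35, adjusted p = 0.193), each over day 1. Without replicate 2 of day 1 they were 0.49, 0.70 and 0.52.

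chi-let-7i-5p, the last of the abundant members, showed no clear direction between day 60 and day 1. It had 36706, 10100, 19202, 34488 and 50783 RPM on day 1, 20354, 37945, 39342, 27662 and 28685 RPM on day 60, 22575, 20309, 34037, 39784 and 41411 RPM on day 120, and 55930, 36580, 35684, 27716 and 40708 RPM on day 180. Every later age lay within the span of day 1, save 1 animal of day 180. The log2 fold change of day 60 over day 1 was 0.19 (limma, SE 0.39, adjusted p = 0.813), with a 95% interval from -0.61 to 0.99. It was -0.15 without replicate 2 of day 1 and -0.07 with edgeR and TMM.

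chi-miR-98-5p, a let-7 family member by seed that lies in the gene HUWE1, was the one strand below 0 against day 1. It had 3447, 1173, 2587, 4365 and 2118 RPM on day 1, 2824, 2306, 1573, 2241 and 2343 RPM on day 60, 1995, 2930, 2195, 1754 and 1674 RPM on day 120, and 1098, 2235, 1872, 1530 and 1146 RPM on day 180. All 5 animals of day 180 lay below the day 1 mean, and 2 of them below every day 1 animal. It averaged 1576 ± 484 RPM on day 180 and 2738 ± 1225 RPM on day 1 (SD, n = 5 each). The log2 fold change was -0.72 (limma, SE 0.37, adjusted p = 0.288), with a 95% interval from -1.48 to 0.05, and -0.99 without replicate 2 of day 1 (limma, adjusted p = 0.165). Over day 1 it was -0.17 for day 60 and -0.27 for day 120, and without replicate 2 of day 1 -0.44 and -0.54, none past the test. Without that newborn let-7i-5p was also below 0 at both ages, at -0.15 and -0.14.

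The second question was whether the strands stayed at the day 60 level. Against day 1, 0 of 9 members were called on day 120 by limma, where 3.38% of all miRNAs were called in either direction and 1.45% higher. At an unadjusted p under 0.05 there was 1 member (let-7g), beside 93 of all 414 miRNAs. Again 8 of 9 changes were positive and their median was 0.77 (log2 fold change), where 43.7% of all miRNAs were positive and their median was -0.12. Without replicate 2 of day 1, 7 of 9 were positive with a median of 0.67. In that fit 54.3% of all miRNAs were positive and their median was 0.11. On day 180, 0 of 9 were called by limma, where 3.38% of all miRNAs were. At an unadjusted p under 0.05 there were 2 members (let-7f and let-7g), beside 86 of all 414 miRNAs. Positive changes were found for 8 of 9 strands, with a median of 0.56 (log2 fold change), where 37.4% of all miRNAs were positive and their median was -0.25. Without replicate 2 of day 1, 7 of 9 were positive with a median of 0.52. In that fit 48.2% of all miRNAs were positive and their median was -0.04, and limma called 0 members at either age. edgeR and DESeq2 called 0 members in either comparison. No member separated from day 1 without overlap on day 120, where 3.86% of all miRNAs were higher and 3.38% lower without overlap, or on day 180, where 0.725% were higher and 2.9% lower. let-7e-5p stood at 0.05 on day 180 over day 1, at -0.05 with miR-9-5p and miR-7-5p left out of the totals, at -0.0096 without replicate 2 of day 1 and at -0.17 without replicate 3 of day 180. let-7a, b, c and d stood at 0.77, 0.52, 0.56 and 0.59 on day 180 over day 1, and at 0.43, 0.16, 0.36 and 0.22 without that animal. The 3 comparisons share the day 1 animals, so that their values are not independent of each other.

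**Figure D3:**
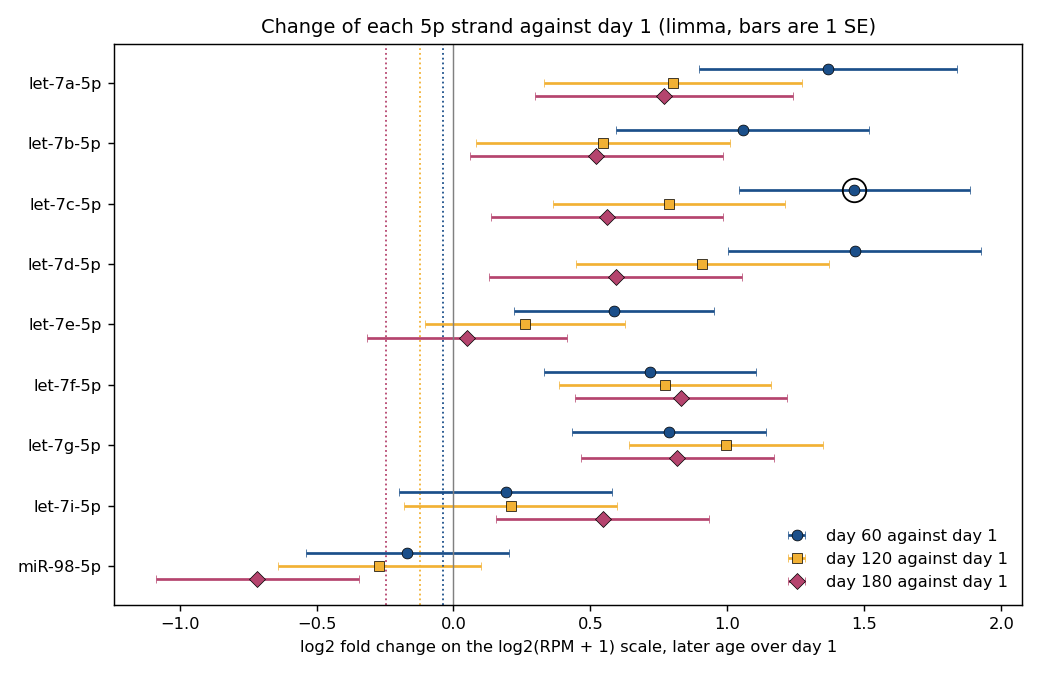
Points are the limma log2 fold changes of each strand on the log2(RPM + 1) scale, later age over day 1, and bars are 1 SE; dotted lines give the median of all 414 miRNAs in the same comparison. The circled let-7c-5p on day 60, at 1.46, is the one value with an adjusted p under 0.05, and miR-98-5p is the one strand left of 0 at all 3 ages.

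Between the later ages no member passed. limma called 0 of 9 from day 60 to day 120 and 0 of 9 from day 120 to day 180, where 0% of all miRNAs were called in either. No member had an unadjusted p under 0.05, where 13 and 3 of all 414 miRNAs had, and edgeR and DESeq2 called 0 members. For day 180 over day 60 limma, edgeR and DESeq2 called 0 of 9, with 0% of all miRNAs called by limma. At an unadjusted p under 0.05 by limma there were 20 of all 414 miRNAs and 1 member, let-7c-5p. Its log2 fold change was -0.90 (limma, SE 0.42, adjusted p = 0.86). let-7a to let-7e all lay below 0 for day 180 over day 60, between -0.90 and -0.53, while let-7f, g and i were at 0.11, 0.03 and 0.35 and miR-98-5p at -0.55. The value of let-7g-5p became -0.02 with miR-9-5p and miR-7-5p left out of the totals and -0.05 with quantile scaling. The limma F test over the 4 ages called 0 of 9 members, where 1.93% of all miRNAs passed, with a smallest adjusted p of 0.173 for let-7c-5p. At an unadjusted p under 0.05 by that test there were 3 members (let-7c, d and g), beside 70 of all 414 miRNAs. edgeR with TMM called 0 members over the 4 ages, edgeR with library size alone called let-7c-5p, and DESeq2 called let-7c-5p and let-7d-5p, the shares of all miRNAs they called not being given.

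Because each member is measured in the same library, the make-up of the pool does not depend on how the library was scaled. let-7a-5p made up 16.0% ± 4.08 of the pool in newborns, 23.6% ± 7.57 at day 60, 17.8% ± 5.48 at day 120 and 17.4% ± 7.01 at day 180 (SD, n = 5 each). let-7i-5p ran the other way, at 18.5% ± 3.81, 11.9% ± 2.65, 13.6% ± 3.33 and 17.0% ± 4.53. miR-98-5p held 1.82% ± 0.63 of the pool on day 1 and 0.93% ± 0.37, 0.94% ± 0.30 and 0.69% ± 0.23 at the 3 later ages. The share of let-7f-5p was 30.4% ± 8.79, 27.4% ± 5.17, 31.8% ± 6.27 and 32.7% ± 5.80. These shares were not tested.

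Single animals departed from these averages. In replicate 3 of day 60 let-7a-5p made up 34.1% and let-7g-5p 8.53% of the pool, the highest and the lowest share of those strands in the series. In replicate 1 of day 120 let-7a-5p made up 9.79% and let-7f-5p 41.3%. The ratio of let-7a-5p to let-7f-5p ran from 0.24 in that animal to 1.59 in replicate 3 of day 60, and was above 1 in 4 of 20 libraries. The ratio of let-7a-5p to let-7b-5p varied far less, with a median of 2.84, a lowest value of 1.29 in replicate 2 of day 1 and a highest of 3.51.

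By Spearman correlation across the 20 libraries the strands fell into a tight set and a loose set. let-7a, b, c, d and e kept company: over their 10 pairs the Spearman correlation of levels ran from 0.65 to 0.94, with a median of 0.85. After each age's mean was subtracted, the Pearson correlation of log2(RPM + 1) still ran from 0.58 to 0.91 over these pairs, and without replicate 2 of day 1 the Spearman median was 0.88. Over the 20 pairs that join this set to let-7f, let-7g, let-7i and miR-98, the Spearman correlation ran from -0.16 to 0.66, with a median of 0.32. Among those 4 strands it ran from -0.40 (let-7i with miR-98) to 0.59 (let-7f with let-7i), with a median of 0.17. Without replicate 2 of day 1 the Spearman correlation among the 4 ran from -0.57 to 0.52, with a median of 0.05. With each age's mean subtracted, the Pearson correlation among the 4 ran from 0.13 to 0.83, the highest again for let-7f with let-7i. Its median was 0.64, beside 0.81 for let-7a to let-7e, so that the sets were less distinct by this measure. The division into these sets was made after the values were seen. The points share libraries and a fixed total of RPM, and members can share reads, so the coefficients are descriptions over n = 20 libraries.

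**Figure D4:**
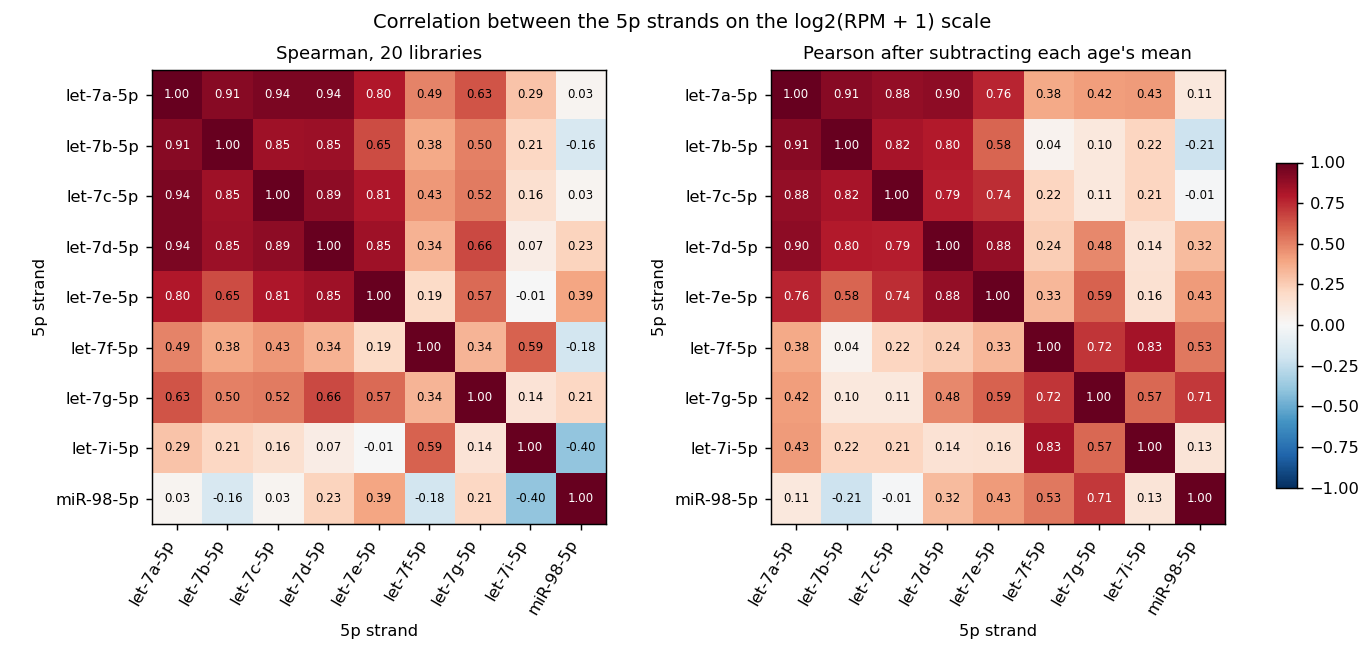
Squares give the correlation between each pair of 5p strands on the log2(RPM + 1) scale, as Spearman's coefficient over 20 libraries on the left and as Pearson's after the mean of each age was subtracted on the right. The upper left block of let-7a to let-7e is dark throughout, at 0.65 or more on the left and 0.58 or more on the right, and let-7f pairs best with let-7i, at 0.59 and 0.83.

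The sets were not those of the gene neighbours listed, 1 gene per mature name, in the goat reference ARS1.2. There the let-7f gene lies beside let-7d, and the let-7a gene beside let-7b. let-7a and let-7b correlated at 0.91 (Spearman, n = 20), whereas let-7d and let-7f correlated at 0.34. let-7d correlated at 0.94 with let-7a and at 0.85 with let-7e, genes that lie elsewhere in this reference. let-7c lies beside miR-99a and near miR-125b, and let-7e beside miR-99b. These reference genes are 1 per mature name, while mammals carry several copies of let-7a and let-7f, so a mature strand may also come from copies the reference table does not list.

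In mammals let-7 genes share clusters with the miR-99, miR-100 and miR-125 genes, and 5 strands were taken as cluster partners: miR-99a-5p, miR-99b-5p, miR-100-5p, miR-125a-5p and miR-125b-5p. limma on the deposited RPM called 0 of 5 in each comparison of ages. Between day 60 and day 1 limma called 0 of 5, with 0 at an unadjusted p under 0.05 (87 of all 414 miRNAs), and 1 of 5 changes was positive, the median being -0.15 (log2 fold change). Replicate 2 of day 1 held the highest day 1 level of each of the 5 partners, and fits of the partners without it are not given. By median, miR-99b-5p stood at 11423 RPM on day 60 and 9447 RPM on day 1. For miR-125a-5p the medians were 13252 and 7496 RPM, and for miR-125b-5p 12713.5 and 9604 RPM. The medians of miR-99a-5p (12442 and 22275 RPM) and miR-100-5p (35566 and 42515 RPM) were lower on day 60. miR-99a-5p averaged 17920 ± 8847 RPM on day 60 and 26227 ± 11309 RPM on day 1 (SD, n = 5 each), a log2 fold change of -0.60 (limma, SE 0.38, adjusted p = 0.383), where let-7c-5p from the same transcript stood at 1.46. The difference between those 2 changes was not tested. On day 120 every animal had less miR-99a-5p than every day 1 animal (limma log2 fold change -0.85, SE 0.38, adjusted p = 0.19), where 3.38% of all miRNAs were lower without overlap. With quantile scaling that value was -1.07 and passed (limma, adjusted p = 0.0421), the only call of a partner under any alternative run. Replicate 2 of day 1 held 65069 RPM of miR-125b-5p, the highest of all libraries, and the lowest let-7f-5p.

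The 3p strands of the same hairpins, most of which are discarded when the guide is loaded, were far rarer. Of the 9 strands 8 passed the filter, and let-7g-3p did not. The 5p strand outnumbered the 3p strand least in let-7d, with a median ratio of 5.05 over 20 libraries and a range from 1.23 in replicate 2 of day 1 to 6.96. Median ratios were 62.5 for let-7b and 77.0 for let-7e, 543 for let-7c, 656 for let-7a and 1334 for miR-98, over the 19 libraries with miR-98-3p reads. They were 13756 for let-7f, 17631 for let-7i and 85978 for let-7g, where the 3p strand had few reads: let-7g-3p had 0 to 75 per library and was at 0 in 2.

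Between day 60 and day 1 limma called 1 of the 8 tested 3p strands, let-7c-3p, higher, where 0.725% of all miRNAs were called higher. Of the changes 7 of 8 were positive with a median of 1.10 (log2 fold change), where 46.6% of all miRNAs were positive and their median was -0.04. Without replicate 2 of day 1, limma called 0 of 8, and 7 of 8 were positive with a median of 1.10. In that fit 55.0% of all miRNAs were positive and their median was 0.11. let-7c-3p rose to 27.6 ± 8.97 RPM on day 60, against 8.34 ± 3.26 RPM on day 1 (SD, n = 5 each; limma log2 fold change 1.63, SE 0.44, adjusted p = 0.0399), and the groups did not overlap, as in 0.725% of all miRNAs, in that direction. The call held in 12 of the 20 fits with 1 library left out. Leaving out replicates 2 and 3 of the newborns, 2, 3 and 4 of day 60, or 3, 4 and 5 of day 120, each alone, ended it. Both strands of let-7c were thus called, in the same animals. let-7f-3p had 2.93 to 8.53 RPM on day 120, 2.91 to 7.61 RPM on day 180 and 0.241 to 3.37 RPM on day 1, with 2 to 57 reads per library. It was called higher on day 120 than on day 1 (log2 fold change 1.44, SE 0.39, limma adjusted p = 0.0354) and on day 180 than on day 1 (1.40, SE 0.39, limma adjusted p = 0.0424), while let-7f-5p was not. Of all miRNAs 1.45% were called higher on day 120 and 0.725% on day 180, each over day 1. Leaving out replicates 1 and 5 of the newborns, or 2, 3 and 4 of day 120, each alone, ended the first call. The second held in 7 of the 20 fits, those without replicate 3 of day 1, 1, 3 or 4 of day 60, 1 or 3 of day 120, or 4 of day 180. miR-98-3p and its guide had changes of opposite sign. miR-98-3p averaged 1.79 ± 0.55 RPM on day 180 and 0.35 ± 0.33 RPM on day 1 (limma log2 fold change 1.06, SE 0.35, adjusted p = 0.0932), where miR-98-5p stood at -0.72. miR-98-3p had at most 30 reads in a library and was at 0 in 1 newborn, so that its day 1 values, 0 to 0.845 RPM, lie near the floor of 3 reads, 0.36 to 0.747 RPM over the libraries. The median ratio of miR-98-5p to miR-98-3p was 7783 on day 1, over the 4 libraries with 3p reads, and 1712, 1334 and 918 on days 60, 120 and 180.

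**Figure D5:**
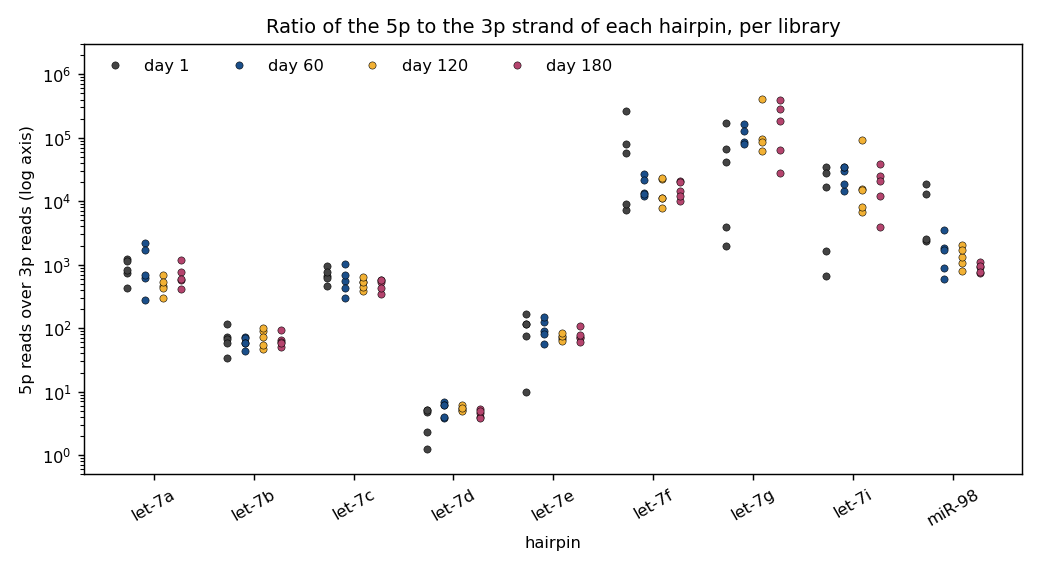
Points are the ratio of 5p to 3p reads of each hairpin in each library on a log axis, with the 4 ages side by side; 3 libraries with no 3p reads, 2 for let-7g and 1 for miR-98, are not drawn. let-7d lies lowest, with a median of 5.05, let-7g highest, with a median of 85978, and the miR-98 ratios step down from a median of 7783 on day 1 to 918 on day 180.

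The miRNAs most like the pool were found among 154 named miRNAs at a mean of 100 RPM or more, let-7 and miR-98 strands left out. By Spearman correlation with the summed RPM of the 9 members over 20 libraries they were miR-30a-3p (0.86), miR-224-5p (0.78), miR-25-3p (0.74), miR-206 (0.70) and miR-30f-5p (0.69). Without replicate 2 of day 1 the coefficients were 0.84, 0.81, 0.71, 0.65 and 0.91. miR-30a-3p averaged 604 ± 236 RPM in newborns, 803 ± 362 RPM at day 60, 885 ± 367 RPM at day 120 and 940 ± 412 RPM at day 180 (SD, n = 5 each). None of the 5 was called by limma between day 60 and day 1, at adjusted p from 0.124 for miR-206 to 0.671 for miR-30a-3p. These coefficients describe libraries that share a fixed RPM total. The cluster partners ranged from -0.04 for miR-100-5p to 0.55 for miR-125a-5p over 20 libraries. Without replicate 2 of day 1, miR-125a-5p reached 0.81, miR-99b-5p 0.77 and miR-125b-5p 0.75, each above miR-25-3p and miR-206. miR-99a-5p then stood at 0.29 and miR-100-5p at 0.09. The choice of the 5 most like the pool thus depended on that library.

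The tissue label was checked against marker miRNAs. Of 5 listed for neurons and the neuroendocrine hypothalamus 4 were in the table: miR-9-5p at 174740 ± 65703 RPM, miR-7-5p at 83586 ± 78288 RPM, miR-128-3p at 16474 ± 11074 RPM and miR-124a at 896 ± 522 RPM (SD, n = 20). The list's sum ran from 125152 to 388757 RPM on day 60 and from 188352 to 386074 RPM on day 1. It correlated at -0.54 with the pool over 20 libraries (Spearman), and replicate 3 of day 60, the library with the most let-7a-5p, had the least miR-9-5p of all, 62610 RPM. miR-9-5p and miR-7-5p together take up a large part of a fixed total. With both left out of the totals, 1 member was again called between day 60 and day 1, let-7c-5p, at a log2 fold change of 1.42 (limma, adjusted p = 0.0471).

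Among markers of other cells, miR-449a-5p and miR-122 were the 2 called between day 60 and day 1. Of 4 markers of multiciliated cells and choroid plexus, 1 was called lower by limma on day 60 than on day 1, miR-449a-5p (log2 fold change -2.70, adjusted p = 0.0112). miR-34b-3p (-1.05) and miR-34c-5p (-2.67) were also below 0, while miR-204-5p was above it (1.00), none of them called. The sum of the 4 ran from 2356 to 11230 RPM on day 60 and from 2756 to 7970 RPM on day 1. Most of it was miR-204-5p, which averaged 4220 RPM over the libraries, against 6.07 RPM for miR-449a-5p. miR-122, the liver miRNA, was called higher on day 60 than on day 1 (limma log2 fold change 3.78, adjusted p = 0.011), with 124 to 2540 RPM on day 60 and 2.66 to 91.6 RPM on day 1. It correlated at 0.67 with the pool over 20 libraries (Spearman). Summed muscle markers ran from 534 to 2282 RPM on day 60 and from 263 to 2643 RPM on day 1, with 0 of 3 called. Vessel markers ran from 31102 to 137288 RPM on day 60 and from 30032 to 218755 RPM on day 1, with 0 of 3 called. The 2 erythroid markers found of 3 listed summed to 148 to 279 RPM on day 60 and 86.3 to 1533 RPM on day 1, and miR-144-3p was at 0 in 5 of 20 libraries. Immune markers (3 of 5 found), oligodendrocyte markers (2 of 3) and pituitary and epithelial markers (2 of 3) had 0 called between day 60 and day 1. Whether these shifts take part in the let-7 values was not tested.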

How the data were processed

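Hypothalamic small RNA of 20 goats was sequenced. Trizol was used for the RNA and a NEBNext small RNA kit for the libraries, per the labels' protocols. Bowtie is named in the submitters' processing notes without a version. The sources used here give no build, miRNA catalogue or counting method. One table from the authors holds 683 miRNAs in columns headed tpm. Its values are taken as RPM, since lengths of miRNAs do not enter the deposited values and low values are whole multiples of 1 step that all miRNAs of a library share. Division by that step gave whole reads for 100% of values below 1000 reads, within 0.1 read.

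limma (version 3.58.1, R 4.3.3; mean-variance trend, two-sided) was run on log2(RPM + 1) for miRNAs at 1 RPM or more in at least 5 of 20 libraries, which kept 414. All 20 libraries entered 1 fit with 4 age means and no covariate. p-values were adjusted by Benjamini-Hochberg over all 414, with a threshold of 0.05. Fold changes by limma refer to log2(RPM + 1) unless another setting is named, and this scale understates changes of rare miRNAs. Those by edgeR and DESeq2 come from their own models of the recovered reads. The p-values rest on the spread between animals of the same age, pooled over the 4 ages and drawn towards the trend over all miRNAs. Depth was 4017937 to 8324880 reads, so that 3 reads are 0.36 to 0.747 RPM, for counting error only. Alternatives were other pseudocounts (0.1 and 5), filters, scalings and variance priors, the 2 ages alone, the replicate number as a block, each library left out, and, on recovered reads, edgeR (4.0.16) and DESeq2 (1.42.0). The fits were also run on simulated reads with the same variability set for every miRNA. That run checks the code and does not show how the fits behave at the spread found here.

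The text names all 9 members, the 3p strands of their hairpins, 5 cluster partners and the 5 miRNAs most like the pool. Members and lists were chosen with earlier results of these data known. Libraries of the same age all differed by more than sampling noise (smallest chi-square over its degrees of freedom 357, among 40 pairs).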

Additional observations from a re-analysis of the deposited data

Results flagged for a closer look

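Of 40 sets of 5 animals (the 9 strands and their sum at 4 ages) 3 held an animal far from the other 4, and chance alone flags about 1 in 20 such sets. let-7c-5p on day 1 was low in replicate 3, at 3406 RPM, against 5622 to 6131 RPM in the other newborns. let-7e-5p on day 180 was high in replicate 3, at 7237 RPM, against 2973 to 4007 RPM in the others. let-7g-5p on day 60 was low in replicate 3, at 29570 RPM, against 47434 to 53960 RPM in the others. The 3 animals carry the same replicate number, and the labels do not say whether that number means anything across ages.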

How the results depend on the processing

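Between day 60 and day 1 the count of 1 member called became 0 with a pseudocount of 0.1, with no filter, with no variance trend and with only the 2 ages in the fit. It became 2 with median-of-ratios and quantile scaling, 3 with edgeR under either scaling and 4 with DESeq2. It was 1 with the replicate block (let-7c-5p, limma adjusted p = 0.0394) and ran from 0 to 3 with 1 library left out. The block changed no call of a member in any comparison. Same-numbered libraries correlated at -0.714 to 0.535 after the age means were removed, and the labels do not say what the number stands for. The F test count of 0 became 1 with edgeR on library size and 2 with DESeq2. All other counts were 0 under every alternative run. The shares of all miRNAs called under the alternatives are not given, so these counts of members have no background beside them. The summed level per age moved by less than 1 SD under median-of-ratios scaling and with each library left out. Fold changes near 0 changed sign, given as log2. For day 60 over day 1, let-7i-5p (0.19) was -0.067 with edgeR and TMM, -0.045 with DESeq2 and -0.15 to 0.43 with 1 library left out, and miR-98-5p (-0.17) was -0.44 to 0.032 with 1 left out. For day 120 over day 1, let-7i-5p (0.21) was -0.061 with edgeR and TMM, -0.084 with DESeq2 and -0.14 to 0.45 with 1 left out. For day 120 over day 60, let-7f-5p (0.055) was -0.0048 with median-of-ratios, -0.0042 without miR-9-5p and miR-7-5p in the totals, -0.031 with edgeR and TMM, -0.080 with DESeq2 and -0.0087 to 0.17 with 1 left out. In the same comparison let-7i-5p (0.018) was -0.041 with median-of-ratios, -0.040 without miR-9-5p and miR-7-5p, -0.28 with quantile scaling, -0.038 with DESeq2 and -0.12 to 0.16 with 1 left out. For day 180 over day 1, let-7e-5p (0.048) was -0.051 without miR-9-5p and miR-7-5p and -0.17 to 0.18 with 1 left out. For day 180 over day 60, let-7g-5p (0.030) was -0.024 without miR-9-5p and miR-7-5p, -0.051 with quantile scaling and -0.13 to 0.12 with 1 left out. The causes were not tested. The totals without miR-9-5p and miR-7-5p were chosen after seeing the data. For day 180 over day 1 the median of all miRNAs was -0.25, -0.03 with median-of-ratios, 0.01 with quantile scaling and -0.46 with edgeR on library size.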
